A study of Homo sapiens with 3 samples.

Results

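The genes described here are 9 secreted or cell-surface proteins that restrain or carry out the cutting of proteins outside the cell: the inhibitors A2M, SERPINE2, TIMP1, TIMP2 and TIMP3, the matrix metalloproteinases MMP1, MMP2 and MMP14, and the carboxypeptidase CPA4. They are 9 of 22714 gene names in the deposited tables, each matched to the locus that carries its symbol, and each had 1 locus with no name joined to it. They were selected on the deposited FPKM, since A2M and CPA4 stood far above the control after knockdown of EWS-FLI1, so the knockdown values of all 9 are a description and support nothing further. The cells were TC32, a Ewing sarcoma line that grows in culture and carries the EWS-FLI1 fusion, and each of 3 RNA-seq libraries stands for 1 group. The groups are knockdown of EWS-FLI1, exposure for 15 hours to 3 µM YK-4-279 (YK below), a compound known for interfering with the contact between the fusion and the RNA helicase DHX9, and cells labelled wild-type control. DMSO is named as vehicle, but whether the control cells received it, or any hairpin, is not stated, and neither is the duration of knockdown. With 1 library per group there was no spread between replicates, no test was made, and "higher" and "lower" describe these libraries only.

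Matrix metalloproteinases cut collagens and other matrix proteins and are made as inactive precursors. TIMPs, the tissue inhibitors of metalloproteinases, block their active site, and TIMP2 also joins MMP14 at the cell surface in the step that activates the MMP2 precursor. A2M is a large secreted inhibitor that traps proteases of every class and is cleared through the receptor LRP1, while SERPINE2, also called protease nexin-1, blocks thrombin, urokinase and plasmin. CPA4 is a secreted enzyme that removes residues from the carboxyl end of peptides, and latexin inhibits its family. In Ewing sarcoma EWS-FLI1 activates genes at runs of GGAA repeats and holds down many mesenchymal genes.

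Promoter windows are shown for CPA4 and SERPINE2, which were higher after knockdown, and for TIMP1, which was not. They reach from 250 bases before to 50 bases after a gene start, come from RefSeq on GRCh38.p14, and matched 5 of the 9 genes in 6 windows. Capitals mark matches on either strand to the letters TGANTCA (the site of AP-1, the Jun and Fos factors), GGAATG (the core of TEAD sites), GGAAGGAA (a pair of ETS cores) and TATAAA.
CPA4, chr7:130292911-130293210, plus strand: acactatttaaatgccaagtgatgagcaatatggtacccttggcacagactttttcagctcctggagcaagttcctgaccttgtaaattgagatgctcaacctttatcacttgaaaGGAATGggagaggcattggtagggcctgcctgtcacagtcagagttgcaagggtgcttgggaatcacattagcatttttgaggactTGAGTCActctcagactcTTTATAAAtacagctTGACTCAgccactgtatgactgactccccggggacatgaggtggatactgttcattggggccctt
SERPINE2, chr2:224031429-224031728, minus strand: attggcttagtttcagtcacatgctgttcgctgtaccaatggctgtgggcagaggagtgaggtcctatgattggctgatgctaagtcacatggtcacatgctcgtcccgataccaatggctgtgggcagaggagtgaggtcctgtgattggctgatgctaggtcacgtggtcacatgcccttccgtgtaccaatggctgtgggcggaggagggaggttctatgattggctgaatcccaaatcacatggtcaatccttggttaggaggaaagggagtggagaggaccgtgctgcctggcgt
TIMP1, chrX:47582186-47582485, plus strand: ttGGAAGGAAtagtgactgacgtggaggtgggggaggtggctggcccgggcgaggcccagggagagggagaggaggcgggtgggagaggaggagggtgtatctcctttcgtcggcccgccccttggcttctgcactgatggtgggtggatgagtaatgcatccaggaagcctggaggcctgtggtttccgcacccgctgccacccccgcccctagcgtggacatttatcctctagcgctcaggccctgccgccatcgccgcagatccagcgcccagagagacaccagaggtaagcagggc
The CPA4 window held the AP-1 letters at positions -48 and -15, counted from the gene start, with a TATA match that begins at -28 between them and 1 GGAATG at -134. Of all 35116 windows, 7.71% held at least 1 AP-1 match and 0.515% held 2 or more, 14.0% held GGAATG and 11.5% held TATAAA. The TIMP1 window held GGAAGGAA at -248, as 3.67% of windows do, and the MMP14 window held its reverse complement at -140. Neither SERPINE2 window nor that of TIMP3 matched those 4 motifs, and TIMP3 held 5 GC boxes (GGGCGG on either strand), which 45.0% of windows hold at least once. Such matches are descriptions of the letters and not evidence of binding.

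The values are FPKM, fragments scaled to locus length and library depth, as deposited by the authors. Over named genes the deposited FPKM stand several-fold higher in the control than in the other libraries, so each library was multiplied by a factor that puts the median gene on 1 level, 1.44 for knockdown, 2.12 for YK and 0.325 for control, and "scaled FPKM" means the result. Loci with no gene name went the other way, with deposited medians of 0.139 FPKM after knockdown, 0.150 with YK and 0.0857 in the control. The factors thus lift the lowest values of the treated libraries further above those of the control. A relative log2 ratio is the difference of log2(scaled FPKM + 1), and its threshold for a call, in either direction, was 1. Ratios and folds of genes near those low levels in the control are therefore unsure. Of 9939 gene names with a deposited mean of at least 1 FPKM, 1715 were higher and 1689 lower after knockdown, 240 higher and 168 lower with YK, and 1442 higher and 1516 lower in the knockdown library than with YK. Upper-quartile scaling gave 2398 higher and 963 lower, 276 and 121, and 1923 and 1087 in these comparisons. Scaling on all names above 0 gave 911 and 3358, 155 and 813, and 1167 and 1825, and no scaling gave 301 and 7094, 57 and 9160, and 2136 and 505. FLI1, the 3' partner of the fusion, stood at 2.13 scaled FPKM in the knockdown library, 17.6 with YK and 21.4 in the control, and EWSR1, the 5' partner, at 58.5, 76.9 and 80.2. Standard errors (SE) come from fragments estimated from the steps of low values, cover counting error only, and are approximate.

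After knockdown, 5 of the 7 genes that passed the filter on low values were called higher and 0 lower, against 34.2% of all compared genes called, 17.3% higher and 17% lower, a count the choice of genes fixed in part. CPA4, A2M, TIMP2, MMP2 and SERPINE2 were those 5, while TIMP1 and TIMP3 lay close to the median gene. With YK, A2M, TIMP2 and CPA4 were called higher and 0 lower, against 4.11% of all compared genes called, 2.41% higher and 1.69% lower. Both comparisons use the same control library, so they do not stand apart from each other. MMP1 and MMP14 had deposited means under 1 FPKM and are given separately.

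**Figure D1:**
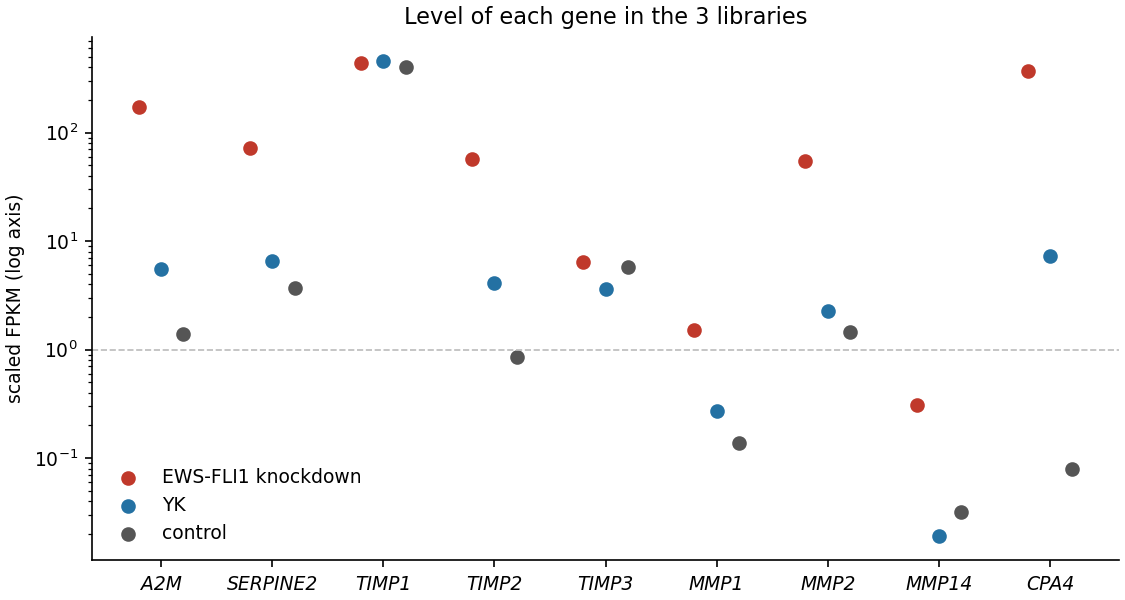
Scaled FPKM of the 9 genes (log axis), with 1 point for each of the knockdown, YK and control libraries and a dashed line at 1. TIMP1 lies above 400 in all 3 libraries, and A2M, SERPINE2, TIMP2, MMP2 and CPA4 are highest in the knockdown library.

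Among the inhibitors, A2M had 119 FPKM in the knockdown library, 2.63 with YK and 4.31 in the control as deposited. Scaled, these values were 171, 5.57 and 1.40 FPKM. The knockdown library stood far above the others, which lay within a few scaled FPKM of each other. The relative log2 ratio was 6.17 (SE 0.05) for knockdown over control, rank 18 of 9939 from the highest, and 1.45 (SE 0.06) for YK over control, rank 136. Inside its own library A2M exceeded 98.6% of gene names after knockdown, 79.5% with YK and 65.8% in the control. The YK direction of A2M rests on the scaling, since the deposited ratio was -0.55.

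SERPINE2, the thrombin and urokinase inhibitor, had 49.9 FPKM in the knockdown library, 3.12 with YK and 11.4 in the control. On the scaled level it had 71.9, 6.59 and 3.69 FPKM. It was called higher after knockdown, with a relative log2 ratio of 3.96 (SE 0.06), and did not reach the threshold with YK at 0.70 (SE 0.07), a ratio that was -1.59, past the threshold as lower, without scaling. Against YK the knockdown library was higher by 3.26 on the log2 scale.

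The TIMPs parted from each other. TIMP1, a soluble inhibitor of most matrix metalloproteinases, had the highest FPKM of the 9 genes in every library, with 306 FPKM after knockdown, 218 with YK and 1237 in the control. Scaled, the 3 libraries held 441, 461 and 402 FPKM, an order in which neighbours differ by little next to the shift between scalings. TIMP1 had relative log2 ratios of 0.13 after knockdown and 0.20 with YK (SE 0.01 each). It exceeded 99.4%, 99.0% and 99.0% of gene names in the knockdown, YK and control libraries. The call after knockdown depends on the setting, because TIMP1 reached 1.13 when ratios were centred on genes of like level and -2.01 without scaling. With YK it stood at -2.50 without scaling.

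TIMP2, the inhibitor that takes part in MMP2 activation, had 39.5 FPKM in the knockdown library, 1.95 with YK and 2.65 in the control. Scaled, TIMP2 held 56.9, 4.12 and 0.859 FPKM. It was highest after knockdown, and the YK library lay between the others on this scale. The ratios were 4.96 (SE 0.06) for knockdown over control and 1.46 (SE 0.07) for YK over control. Without scaling the YK ratio of TIMP2 was -0.31, so its direction, like that of A2M, rests on the scaling.

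TIMP3, which binds the matrix and also blocks ADAM proteases, had 4.44 FPKM after knockdown, 1.70 with YK and 17.9 in the control. The scaled values were 6.39, 3.60 and 5.83 FPKM. The knockdown and control libraries lay close together and the YK library below them, but no comparison passed the threshold, with ratios of 0.11 (SE 0.05) after knockdown and -0.57 (SE 0.06) with YK. TIMP3 with YK was called lower under scaling on all names above 0, at -1.01, and without scaling, at -2.81.

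The make-up of TIMP transcripts inside each library is not changed by a factor that multiplies the whole library. A difference between libraries that varies with the level of a gene would still change it. TIMP1 made up 87.4% of the summed FPKM of the 3 TIMPs in the knockdown library, 98.4% with YK and 98.4% in the control. TIMP2 made up 11.3%, 0.878% and 0.21% in the same order, and TIMP3 1.27%, 0.767% and 1.43%. Thus the knockdown library held 7.74 units of TIMP1 for each unit of TIMP2, against 112 with YK and 467 in the control.

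**Figure D2:**
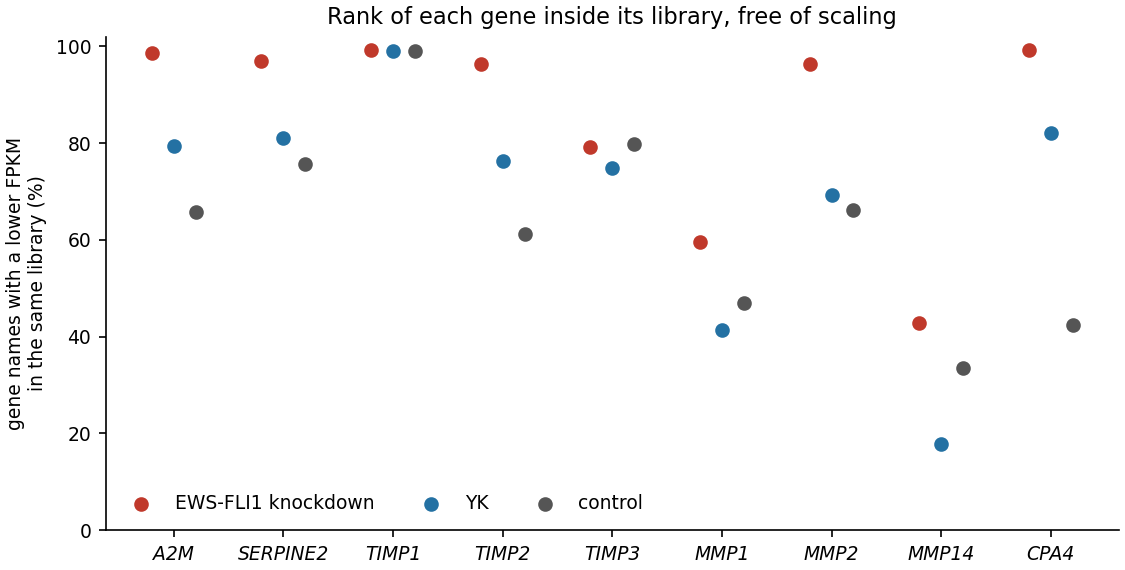
Share of gene names (percent) with a lower FPKM than each of the 9 genes in the same library, for the knockdown library, YK and control. The ranks use no scaling between libraries. CPA4 exceeded 99.3% of names after knockdown, 82.1% with YK and 42.5% in the control, while TIMP1 stays near the top in all 3.

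Of the matrix metalloproteinases, MMP2 was the only gene of the 3 that passed the filter. MMP2, a gelatinase that cuts denatured collagen and basement membrane collagen, had 38.4 FPKM in the knockdown library, 1.06 with YK and 4.43 in the control. Scaled, it had 55.3, 2.25 and 1.44 FPKM. The knockdown library alone was high, and the relative log2 ratios were 4.53 (SE 0.06) for knockdown over control, 0.41 (SE 0.08) for YK over control and 4.12 (SE 0.06) for knockdown over YK. Without scaling, MMP2 with YK stood at -1.40, past the threshold as lower. The FPKM of TIMP2 was 1.03 times that of MMP2 after knockdown, 1.83 times with YK and 0.597 times in the control. The 3 TIMPs together had 9.12 times the FPKM of MMP2 in the knockdown library, 209 times with YK and 284 times in the control.

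MMP1, the interstitial collagenase, was scarce, with 1.05 FPKM after knockdown, 0.129 with YK and 0.421 in the control. These correspond to about 119, 19.9 and 12.6 estimated fragments. The scaled values were 1.52, 0.273 and 0.137 FPKM, and the ratio after knockdown of 1.15 (SE 0.09) was past the threshold but was 0.25 when centred on genes of like level and 0.53 without scaling. MMP14, the membrane-type protease that activates MMP2, had 0.213 FPKM after knockdown, 0.00897 with YK and 0.099 in the control, or about 45.5, 2.62 and 5.60 estimated fragments. The lower and upper quartiles of the 63683 loci with no gene name were 0.0754 and 0.199 FPKM after knockdown, 0.116 and 0.189 FPKM in the YK library, and 0.0284 and 0.164 FPKM in the control. MMP14 with YK and in the control, and MMP1 with YK, thus lay within or below the range of unnamed loci, and no direction is drawn for MMP14.

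CPA4 had the highest ratio of the 9 genes in each comparison. It had 258 FPKM in the knockdown library, 3.47 with YK and 0.246 in the control, and scaled 372, 7.34 and 0.08 FPKM. The libraries stood in a clear order, with the control value resting on about 10.5 estimated fragments. Relative log2 ratios were 8.43 (SE 0.03) for knockdown over control, rank 4 of 9939, and 2.95 (SE 0.06) for YK over control, rank 44. Those errors are small because 1 is added to a control value near 0. For the log2 ratio without the added 1, the counting SE was 0.445 after knockdown and 0.448 with YK. The knockdown ratio ran from 7.70 without scaling to 11.0 with a pseudocount of 0.1. Knockdown over YK was 5.48 (SE 0.05), rank 8. CPA4 was the gene of the 9 called higher with YK under every alternative run, from 1.84 without scaling to 5.37 with a pseudocount of 0.1. After knockdown CPA4 reached 0.844 times the FPKM of TIMP1, against 0.0159 times with YK and 0.000199 times in the control.

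**Figure D3:**
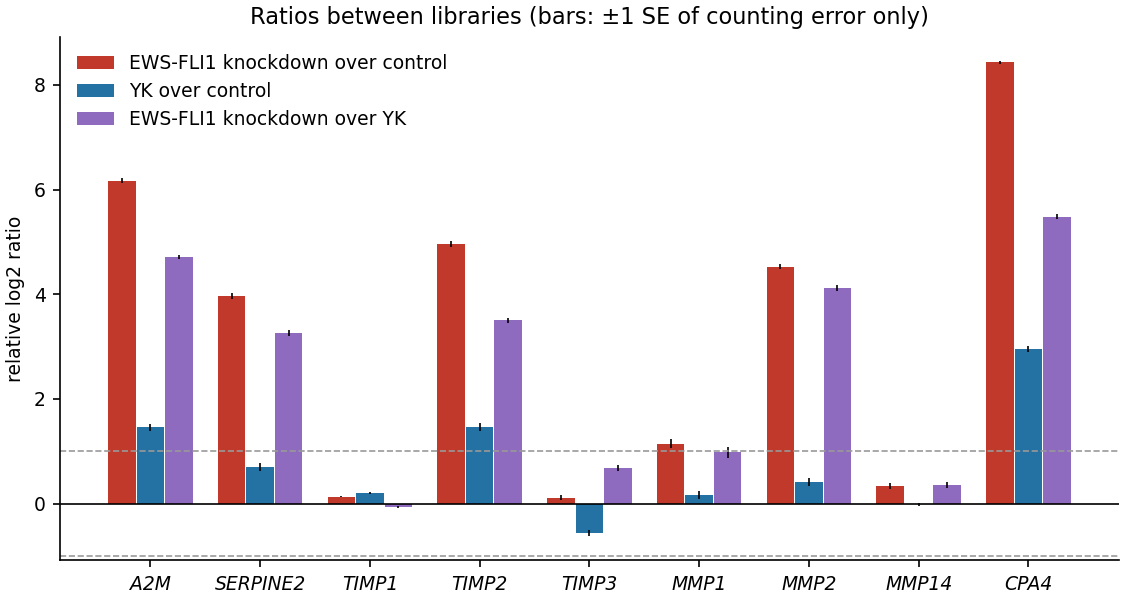
Relative log2 ratios of the 9 genes for knockdown over control, YK over control and knockdown over YK, with bars of 1 SE for counting error only and dashed lines at the threshold of 1 in both directions. The knockdown bars of A2M, SERPINE2, TIMP2, MMP2 and CPA4 lie between 3.96 and 8.43, and those of TIMP1 and TIMP3 near 0.

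Set directly against each other, the knockdown library was called higher than the YK library for A2M, SERPINE2, TIMP2, MMP2 and CPA4 and lower for 0 of the 7 compared genes, against 29.8% of all compared genes called, 14.5% higher and 15.3% lower. The ratios of these 5 genes ran between 3.26 for SERPINE2 and 5.48 for CPA4, and each stayed past the threshold under all 8 alternatives. The alternatives on locus matching could not change a gene with 1 locus. A2M and CPA4 were picked as high in this same knockdown library, so this count too is a description. TIMP1 stood at -0.07 and TIMP3 at 0.68. MMP1, below the filter, stood at 0.98, just short of the threshold.

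Reads of overlapping genes could be shared with a member. SYN1, inside which TIMP1 lies on the opposite strand, had 0.84 FPKM after knockdown, 2.53 with YK and 26.7 in the control. KLRG1, whose RefSeq span overlaps A2M, had 0.655, 1.90 and 10.7 FPKM in the same order. Like SYN1, KLRG1 was lower after knockdown than in the control, while A2M was higher after knockdown. The antisense gene A2M-AS1 had 0.113, 0.0311 and 0.0216 FPKM, and SYN3, around TIMP3, had 0.0526, 0.110 and 0.377. Use of strand in the counting was not stated.

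The pattern most like that of A2M over both ratios to the control belonged to CYR61, at 6.26 after knockdown and 1.59 with YK, a distance of 0.16 on the log2 scale. CTGF, at 5.95 and 1.65, and PTX3, at 6.32 and 1.13, followed. Those are secreted matrix-associated proteins, the last a pentraxin. CPA4 had no close neighbour: the nearest were SPARC at 6.92 and 2.71, GPNMB at 6.75 and 2.56, and FN1 at 6.69 and 3.40, the first at a distance of 1.53. These likenesses describe 3 libraries that share 1 control.

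Other genes of the protease network were counted from lists written from general knowledge with earlier results of these data known. Together they held 148 genes with a locus besides the 9, of which 57 passed the filter. After knockdown 38 of the 57 were higher and 3 lower, with a median relative log2 ratio of 1.79, against 17.3% and 17% of all compared genes and a median of 0.0064. With YK 4 were higher and 0 lower, against 2.41% and 1.69% of all compared genes, with a median of 0.25 against 0.03. Between the treated libraries, 37 were higher after knockdown than with YK and 6 lower, against 14.5% and 15.3% of all compared genes. A gene that passed the filter through the knockdown library alone had to differ there, and no test of the lists was made.

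**Figure D4:**
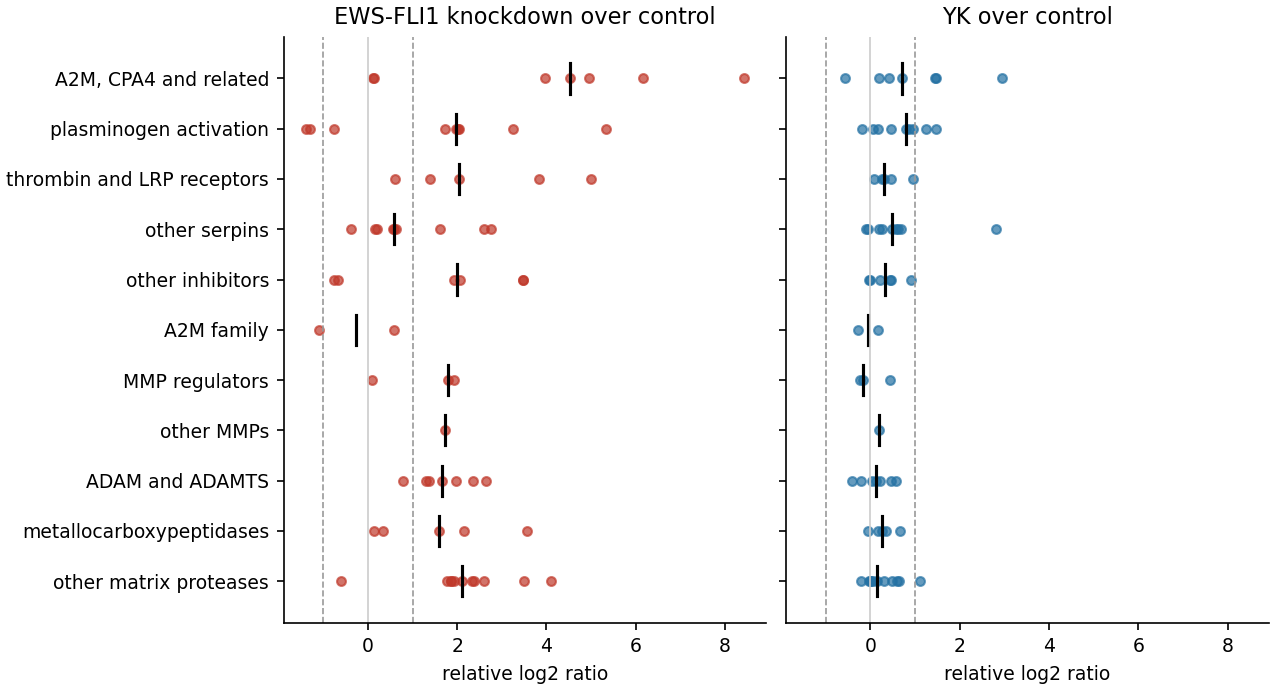
Relative log2 ratio of every compared gene on each list, for knockdown over control at the left and YK over control at the right, on the same axis, with a vertical bar at each median and dashed lines at the threshold in both directions. The first line holds the 7 compared genes of the 9. Most lists lie further to the right after knockdown than with YK.

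Plasminogen activation, which turns the zymogen plasminogen into the broad protease plasmin, had 6 of 9 compared genes higher and 2 lower after knockdown, with a median of 1.96. PLAU, the urokinase that SERPINE2 blocks, had 6.19 FPKM after knockdown, 0.199 with YK and 0.12 in the control, and a knockdown ratio of 3.25. Its receptor PLAUR stood at 1.73, F3, the tissue factor that starts clotting, at 2.05, and the plasminogen-binding pair ANXA2 and S100A10 at 2.02 and 1.96. The lower genes were PLGRKT, a plasminogen receptor, at -1.40 and ENO1, a glycolytic enzyme also found at the cell surface, at -1.30. CPB2, a carboxypeptidase that slows the lysis of clots, had 0.544 FPKM after knockdown, 3.50 with YK and 6.24 in the control, with ratios of -0.76 and 1.47, the YK direction resting on the scaling. Without scaling the median of this list after knockdown was -0.11. The knockdown direction of PLAUR, ANXA2 and S100A10 rests on the scaling, since their deposited FPKM were below those of the control.

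Among thrombin and LRP-type receptors, 4 of 5 compared genes were higher after knockdown, with a median of 2.04, and 0 with YK. F2R, the thrombin receptor, had 51.8 FPKM after knockdown, 1.69 with YK and 4.20 in the control, and a knockdown ratio of 5.00. F2RL2, a related receptor, stood at 3.83, VLDLR at 2.04 and LRPAP1, the chaperone of LRP1, at 0.61. LRP1 itself, the receptor that clears A2M and SERPINE2 complexes, was below the filter. It had 1.45, 0.38 and 0.698 FPKM after knockdown, with YK and in the control. Its knockdown ratio was 1.33, past the threshold.

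Other serpins were mixed, with 3 of 9 higher after knockdown, 0 lower and a median of 0.59. SERPINB7 had 4.01 FPKM after knockdown and 0.233 with YK and was listed at 0 in the control. SERPINH1, the collagen chaperone HSP47, stood at 2.60 and SERPING1, the inhibitor of complement C1, at 1.61, while SERPINB6 was lowest at -0.37. The direction of SERPING1 rests on the scaling, since it had 6.55 deposited FPKM after knockdown and 7.44 in the control. Without scaling the median of this list after knockdown was -1.02. With YK the merged locus of HMSD and SERPINB8 was the 1 higher gene, at 2.80, with 2.14 FPKM after knockdown, 8.57 with YK and 5.37 in the control, and SERPINI1 was lowest at -0.09. Of the A2M family 2 genes were compared, CD109 at 0.58 and the complement component C5 at -1.11 after knockdown.

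Inhibitors of other kinds had 4 of 6 higher after knockdown, with a median of 1.99, and 0 past the threshold with YK. TFPI, which blocks the tissue factor pathway, had 117 FPKM after knockdown, 13.1 with YK and 43.7 in the control, at ratios of 3.48 and 0.91. SPOCK1, a testican proteoglycan, stood at 3.47, CST3, cystatin C, at 2.07 and TFPI2, which inhibits plasmin, at 1.92. PEBP1 was lowest at -0.75. Among the regulators of matrix metalloproteinases, PCSK7, a proprotein convertase, stood at 1.79 after knockdown and at -0.23 with YK, and BSG, the inducer EMMPRIN, at 0.10.

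MMP16, a membrane-type protease, was the 1 other matrix metalloproteinase of 20 that passed the filter, with 3.71 FPKM after knockdown, 0.554 with YK and 2.78 in the control and a knockdown ratio of 1.74. Of ADAM and ADAMTS genes, not all of which encode active proteases, 6 of 7 were higher after knockdown, with a median of 1.66, or -0.30 without scaling. ADAM23, on a locus merged with LOC200726, was highest at 2.65, followed by ADAM9 at 2.35, ADAM19 at 1.98 and the aggrecanase relative ADAMTS1 at 1.66. The sheddases ADAM10 and ADAM17 stood at 1.38 and 1.31, and ADAMTS4 was lowest at 0.79. As deposited, ADAM10, ADAM17 and ADAMTS1 had lower FPKM after knockdown than in the control, so their direction rests on the scaling. With YK none of the 7 passed the threshold, from -0.40 for ADAM17 to 0.57 for ADAMTS4.

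The list of metallocarboxypeptidases other than CPA4 also holds LXN, an inhibitor, and RARRES1, which is not a carboxypeptidase. Of its 5 compared genes 3 were higher after knockdown, with a median of 1.60, and RARRES1 stood at 0.34. CPE, which trims prohormones, had 21.6 FPKM after knockdown, 1.55 with YK and 5.26 in the control, at a ratio of 3.57, and CPD and CPM stood at 2.15 and 1.60. CPB1 was lowest at 0.15. CPA1, CPA3, CPA5 and CPA6, relatives of CPA4, had deposited means under 1 FPKM.

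Of the other matrix proteases and their helpers, 10 of 11 compared genes were higher after knockdown and 1 with YK. PRSS23, a serine protease, was highest at 4.10, with 11.6 FPKM after knockdown, 0.272 with YK and 0.111 in the control. Several others are named after their values were seen. HTRA1, a secreted serine protease, had 7.15 and 0.267 FPKM and was listed at 0 in the control. BMP1, the procollagen C-proteinase, stood at 2.32, and its enhancers PCOLCE2 and PCOLCE at 2.37 and 1.78. The cathepsins CTSD, CTSL and CTSB stood at 2.60, 1.93 and 1.86, and CTSK, on a locus merged with ARNT, was lowest at -0.61. The direction of CTSL, CTSB and PCOLCE after knockdown rests on the scaling. As deposited, CTSL had 26.5 FPKM after knockdown and 28.5 in the control, CTSB 74.1 and 88.6, and PCOLCE 21.5 and 25.6. Without scaling the median of this list after knockdown was 0.62. PAPPA, which cuts IGF-binding proteins, had 3.47 FPKM after knockdown, 0.929 with YK and 1.19 in the control, with ratios of 2.11 and 1.10, and its YK direction rests on the scaling.

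Marker genes were read beside these values. Ewing sarcoma markers had a summed scaled FPKM of 57.0 after knockdown, 271 with YK and 285 in the control. STEAP1 alone held 30.8, 148 and 177 of these sums. In the same order, 6 of 8, 7 of 8 and 6 of 8 markers were at 1 scaled FPKM or more. Of the 7 that passed the filter, 6 were lower after knockdown, while NKX2-2 stood at 0.43. CD99 had 2 loci and was listed at 0 in each library, and whether its RNA was absent was not tested. Fibroblast markers summed to 173, 33.3 and 27.9, with 7, 6 and 4 of 9 at 1 or more, none at 0, and COL3A1, on a locus merged with 2 microRNAs, at 77.6, 1.61 and 3.47 deposited FPKM. Of 8 endothelial and macrophage markers only CD68 reached 1 scaled FPKM in any library, and CDH5 was listed at 0 after knockdown. COL3A1 alone held 112 of the 173 scaled FPKM after knockdown. Of the 6 fibroblast markers that passed the filter, 5 were higher after knockdown and 1 lower, DCN at -1.86, and THY1, below the filter, stood at -0.15. The part of these markers in the knockdown values of the 9 genes was not tested. In bulk RNA more cells of a type and more RNA per cell cannot be told apart.

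**Figure D5:**
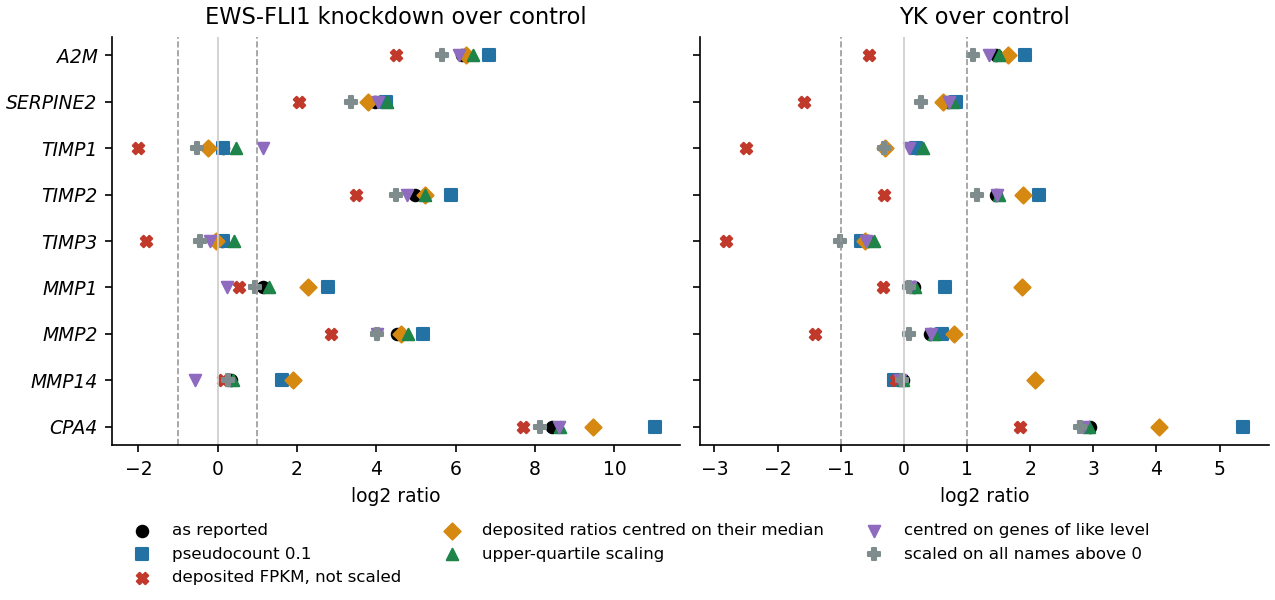
Log2 ratio of each of the 9 genes to the control under the reported setting and 6 alternatives (symbols), for knockdown at the left and YK at the right, with dashed lines at the threshold in both directions; the axes differ in range. A2M, SERPINE2, TIMP2, MMP2 and CPA4 stay above 1 after knockdown in each setting, while with YK only CPA4 does.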

How the data were processed

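RNA-seq of 3 TC32 libraries was used, 1 per group. The FPKM were made and deposited by the authors for 88434 loci, of which 24751 carried a gene name. The submitters' processing notes name Cufflinks 2.2.1, TopHat and CASAVA 1.8.2, with GRCh37 (hg19) as genome build. No source states the annotation, the filters or any scaling between libraries. In the knockdown file the value column reads dEF and the sample title shEF; the labels set its group. Loci of 1 name were summed, scaled on the median gene, and compared as log2(scaled FPKM + 1) with Python 3.11.15 and pandas 2.3.3. The scaling was run on simulated data with few changed genes and a single factor per library. That setting cannot show whether a single factor suits these libraries. What 1 fragment was worth in 1 kb was read from the lowest step of olfactory receptor genes, 0.0174 FPKM after knockdown, 0.0128 with YK and 0.066 in the control. Lengths were those of the longest coding transcript in GENCODE release 29. Over the compared genes with a length this gave 26.5, 33.8 and 43.6 M fragments for knockdown, YK and control, the last above the 15.1 M that the plain definition of FPKM allows, so errors that use the control are the least sure. Every one of the 9 genes is named. From each list the rule named the highest and lowest compared gene of each ratio to the control and, where 8 or fewer genes were past the threshold, all of those; genes named besides were chosen after their values were seen, and some genes the rule would name are not reported here. Members, lists and scaling were chosen with earlier results of these data known. CTSL was matched through its older name CTSL1.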

Additional observations from a re-analysis of the deposited data

How the results depend on the processing

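No paired analysis was possible because each group has 1 library, and for the same reason leaving out a library gives no value. The calls of A2M, SERPINE2, TIMP2, MMP2 and CPA4 after knockdown held under all 8 alternatives run on single genes. Among these, summing loci by exact name or taking the highest locus could not change any of the 9 genes, each having 1 locus.

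Without scaling, 2 of the 9 genes were lower after knockdown, and with YK 1 was higher and 4 lower. The 4 lower with YK were TIMP3 at -2.81, TIMP1 at -2.50, SERPINE2 at -1.59 and MMP2 at -1.40, none past the threshold under the reported setting. A2M and TIMP2 with YK turned to -0.55 and -0.31, and MMP1, which had not passed the threshold, to -0.33. The medians of plasminogen activation and of ADAM and ADAMTS genes after knockdown turned to -0.11 and -0.30, and all compared genes gave 301 higher and 7094 lower after knockdown, 57 and 9160 with YK, and 505 lower after knockdown than with YK. Deposited ratios centred on their median gave 5 of the 9 higher with YK, MMP1 and MMP14 being added, and 1225 genes higher and 446 lower with YK. A pseudocount of 0.1 gave 629 and 288 with YK. Upper-quartile scaling gave 963 lower after knockdown. Centring on genes of like level gave 855 lower after knockdown and 760 lower after knockdown than with YK. Without a filter 363 genes were higher with YK. Among genes with a mean of at least 5 FPKM, 662 were higher after knockdown, 136 with YK and 655 after knockdown than with YK, fewer genes being compared. Scaling on all names above 0, chosen after seeing the data, gave 911 higher and 3358 lower after knockdown, 155 and 813 with YK, and 1 of the 9 lower with YK, TIMP3. The cause of these shifts was not tested beyond the way each alternative is built. MMP1 and MMP14 are limited by few fragments.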

Other observations

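Several genes of the protease lists stood high with YK and not after knockdown; those below the filter on low values were chosen after their values were seen. LXN, which encodes latexin, the inhibitor of the carboxypeptidase family of CPA4, had 0.154 FPKM after knockdown and 1.19 with YK and was listed at 0 in the control. A2ML1, a relative of A2M made in epithelia, had 0.0862 FPKM after knockdown, 0.966 with YK and 0.0966 in the control, a relative log2 ratio of 1.56 with YK. CPQ, a lysosomal and secreted peptidase, had 0.328, 0.715 and 0.123 FPKM, with a ratio of 1.27 with YK. THY1, on the list of fibroblast markers and not on a protease list, had 0.0264, 2.11 and 0.475 FPKM and a ratio of 2.25 with YK. DCN, also a fibroblast marker, did not share this pattern. It had 1.18, 2.72 and 27.2 FPKM and a ratio of -0.54 with YK.

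Below the filter, 4 ADAM and ADAMTS genes also passed the threshold after knockdown. The aggrecanase ADAMTS5 had 2.48 FPKM after knockdown, 0.0967 with YK and 0.0917 in the control, and ADAMTS12 had 2.32, 0.0698 and 0.0285. ADAM15 and ADAMTS2 stood at ratios of 1.18 and 1.00. RECK, a membrane-anchored inhibitor of matrix metalloproteinases, had 1.84, 0.173 and 0.317 FPKM, and MMP11 had 1.79 FPKM after knockdown, 0.0719 with YK and was listed at 0 in the control.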
